A study of Mus musculus with 4 samples.

Results

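Transcriptomes labelled as ovarian granulosa cells (GCs) were compared between mice with and without targeted deletion of Hdac3. Described here are 8 genes of natriuretic peptide and cGMP signalling, the pathway that holds the mouse oocyte in meiotic arrest. These were the peptide precursor gene Nppc, the receptor genes Npr1, Npr2 and Npr3, the phosphodiesterase genes Pde9a and Pde5a, and the cGMP-dependent kinase genes Prkg1 and Prkg2. They were picked by symbol, and each matched 1 of the 28611 rows of the deposited expression table, so that all 8 had values.

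RNA was sequenced as 2 libraries from Hdac3flox/flox and 2 from Hdac3cKO female mice of the C57BL/6 background at postnatal day 24. Both groups carried the floxed Hdac3 alleles and received tamoxifen once by intraperitoneal injection, at 18 days of age and 20 mg per kg of body weight. Hdac3cKO mice also carried Foxl2-CreERT2, in which a Cre recombinase that works only after tamoxifen is made in cells that use the Foxl2 gene, GCs in the ovary. The labels name ovarian GCs as the cell type, while their protocol has whole ovaries removed and frozen. The paper's methods describe this RNA as extracted from ovaries, while naming the comparison one of ovarian GCs. Markers of other ovarian cells were present in the libraries, as given below. The sources used here do not say whether PMSG was given to these mice. As the controls lacked the Cre transgene, deletion of Hdac3 and presence of active Cre cannot be told apart.

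GCs secrete C-type natriuretic peptide (CNP), which is cut from the product of Nppc and binds NPR2, a receptor in the cell membrane whose inner part is a guanylyl cyclase that makes cGMP. The cGMP passes through gap junctions from cumulus GCs into the oocyte, where it blocks the phosphodiesterase PDE3A, so that cAMP stays high and meiosis does not resume. The surge of luteinizing hormone ends this state, in part through EGF-like growth factors, loss of NPR2 activity and a fall in cGMP.

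The sequence that encodes the active peptide is shown because Nppc carries the main result. In GENCODE M21 on GRCm38 the last 22 codons before the stop codon of Nppc lie at chr1:86669667-86669732 on the minus strand, and they are given 5′ to 3′ with the 2 cysteine codons, whose residues close the ring of the peptide, in capitals.
CNP coding end: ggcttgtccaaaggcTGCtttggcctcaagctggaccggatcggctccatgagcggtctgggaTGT

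Promoters of Nppc and of its receptors Npr2 and Npr3 are shown because these 3 genes of a ligand and its receptors ran apart in the comparison. Each run holds 300 bases from RefSeq on GRCm38.p6, 250 before the start site and 50 after it, 5′ to 3′, and capitals mark matches to the GC box GGGCGG, a motif of SP1 searched on both strands.
Nppc, chr1:86670524-86670823, minus strand: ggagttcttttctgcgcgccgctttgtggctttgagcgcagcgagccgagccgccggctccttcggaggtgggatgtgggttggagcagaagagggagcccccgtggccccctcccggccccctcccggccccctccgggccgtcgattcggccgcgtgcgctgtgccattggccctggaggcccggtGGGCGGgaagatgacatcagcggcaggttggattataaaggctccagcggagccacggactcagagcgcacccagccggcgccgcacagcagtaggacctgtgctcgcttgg
Npr2, chr4:43631685-43631984, plus strand: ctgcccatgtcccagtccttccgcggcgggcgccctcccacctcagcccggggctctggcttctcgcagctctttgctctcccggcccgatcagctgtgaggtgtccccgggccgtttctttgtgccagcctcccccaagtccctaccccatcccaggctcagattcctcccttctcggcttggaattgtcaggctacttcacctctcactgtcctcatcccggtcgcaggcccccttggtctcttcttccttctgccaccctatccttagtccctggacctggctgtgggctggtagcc
Npr3, chr15:11907322-11907621, minus strand: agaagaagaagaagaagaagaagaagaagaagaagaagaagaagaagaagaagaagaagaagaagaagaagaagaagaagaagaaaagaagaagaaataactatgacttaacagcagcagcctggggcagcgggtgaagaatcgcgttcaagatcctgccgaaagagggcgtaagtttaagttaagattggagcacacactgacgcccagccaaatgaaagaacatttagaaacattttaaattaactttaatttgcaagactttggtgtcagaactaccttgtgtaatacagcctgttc

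RefSeq held promoters of 6 of the 8 genes, and entries for Pde9a and Prkg2 were not matched. The Nppc promoter had a G and C content of 69.3% (percentile 89.5 of 32851 promoters) and 1 GC box, 62 bases before the start site. That of Npr2 had 64% and that of Npr3 39% (percentile 8.38), and neither held the motif. Npr1 held 2 GC boxes, 60 and 54 bases before the start, Pde5a held 1, and the 2 promoters of Prkg1 held 1 each. The GC box occurred in 35.7% of all promoters of this length. None of these promoters held the forkhead motif TGTTTAC, the cAMP response element TGACGTCA or the NR5A motif AAGGTCA, which were found on either strand in 3.65%, 1.79% and 4.72% of all promoters. These matches describe letters only, and none of them overlaps another.

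The libraries were of like depth, with totals of 17621129 to 18452073 reads. The values are RPKM, reads scaled by exon length and by library total, and the reads behind each value were recovered from them. Hdac3, the targeted gene, was lower in both Hdac3cKO libraries, at 19.38 and 19.18 RPKM against 24.40 and 24.44 RPKM in Hdac3flox/flox (log2 fold change -0.34, adjusted p = 0.00935 from limma). This value counts reads of all its exons, deleted or not. The paper describes depletion of Hdac3 in this model as incomplete. A gene was called where its adjusted p in limma, over the 15528 genes that reached 0.5 RPKM in at least 2 libraries, was under 0.05. Of all tested genes 18.7% were called, 7.68% higher and 11% lower in Hdac3cKO, and the median log2 fold change was -0.04. Rises made up 41.1% of these calls, but 54.5% with median-of-ratios scaling and 62.1% after the trend with exon length and GC content was removed.

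Of the 8 genes, 6 passed the filter and 4 were called, with Nppc and Npr3 higher and Npr1 and Pde9a lower in Hdac3cKO. Npr2 and Pde5a were tested and not called, and Prkg1 and Prkg2 lay below the filter. The share of called genes in all tested genes, 18.7%, is the background for these 4 of 6, and the median log2 fold change of the 6 tested genes was -0.14. When any 1 library was left out, 0 or 1 of the 6 genes was called by limma, although 4 or 5 of them had an unadjusted p under 0.05 in each of these fits. Nppc was the gene called without Hdac3flox/flox replicate 1, and none was called without any of the other 3 libraries. Nothing but the design text says that the replicates were separate mice, so the p-values measure the spread between these libraries.

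**Figure D1:**
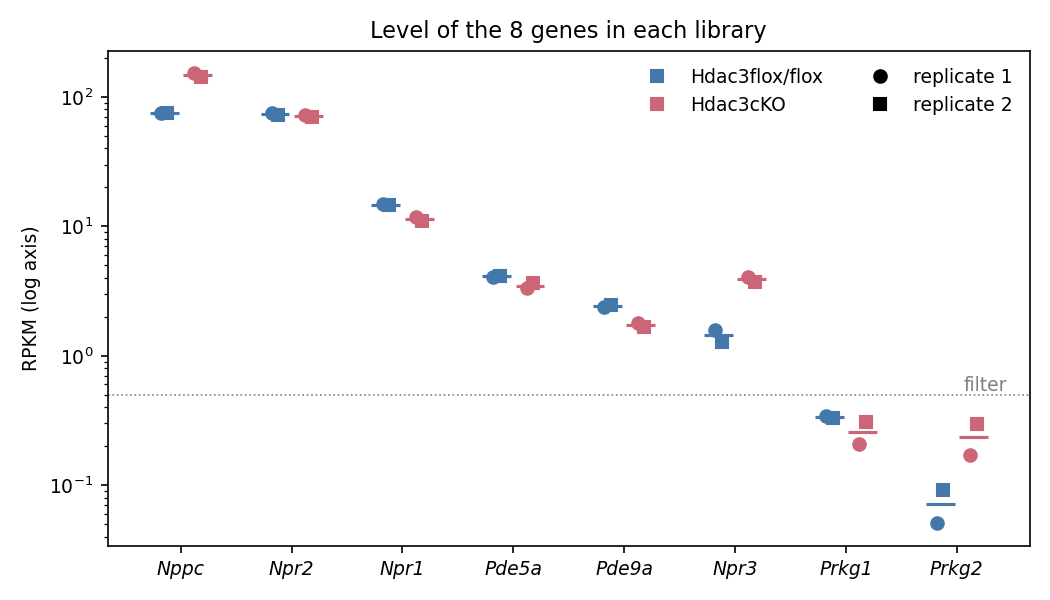
RPKM of each of the 8 genes in each library on a log axis, ordered by the Hdac3flox/flox mean, with circles for replicate 1, squares for replicate 2, lines for group means (n = 2) and a dotted line at the filter of 0.5 RPKM. Nppc stands at 75.16 and 75.27 RPKM in Hdac3flox/flox and at 152.4 and 141.5 RPKM in Hdac3cKO, while the Npr2 libraries all lie between 70.45 and 74.68 RPKM.

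Nppc encodes the precursor of CNP, the ligand that starts the arrest signal, and lies at chr1:86666291-86670571 on the minus strand of GRCm38. Its level was 75.16 and 75.27 RPKM in Hdac3flox/flox and 152.4 and 141.5 RPKM in Hdac3cKO. These values rested on 1434 and 1439 reads against 2930 and 2598 reads. The groups did not overlap, and the gap between them was far wider than that between replicates. Nppc rose 1.95-fold between the means of 75.2 ± 0.079 and 146.9 ± 7.70 RPKM (SD, n = 2 each). Its log2 fold change was 0.96 (95% interval 0.85 to 1.08, adjusted p = 0.00337 from limma). The ratio of summed reads per library total was 1.95, with an exact 95% interval of 1.87 to 2.05 that covers counting error only. No annotated exon of another gene overlaps those of Nppc, and no near-identical transcript was found. The paper also measured Nppc and Npr2 RNA in these genotypes, by quantitative PCR after PMSG. By that method it reported a significant increase only for the EGF-like growth factor gene Areg. From RNA sequencing of this same comparison the paper listed far fewer changed transcripts than were called here, with Areg among the raised ones. Its text names neither the test behind that list nor the place of Nppc in it. Quantitative PCR is another method, and whether the mice of these libraries received PMSG is not stated. The age may differ too. The paper's schedule gave PMSG several days after tamoxifen and took RNA later still, while these libraries are from postnatal day 24.

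The rise of Nppc was called in each of 9 other settings that kept all 4 libraries, with log2 fold changes of 0.96 to 1.06. With 1 library left out the log2 fold change lay between 0.91 and 1.02. The adjusted p of limma was then 0.0486 and 0.0586 without the first and the second Hdac3flox/flox library, and 0.0833 and 0.0771 without the first and the second Hdac3cKO library. In bulk RNA, a change in the number of cells that make a transcript and a change in the RNA made per cell cannot be told apart. GC markers were mixed, with 6 of 12 called higher and 3 called lower, beside 7.68% higher and 11% lower over all tested genes. The 3 lower ones were Fshr, Esr2 and Foxl2 (log2 fold changes -0.22, -0.44 and -0.27), the last named after its values were seen. Their list of 12 had a summed level of 8057 and 7627 RPKM in Hdac3flox/flox against 9230 and 8801 RPKM in Hdac3cKO. Taken as a share of this sum, Nppc stood at 0.933% and 0.987% in Hdac3flox/flox and at 1.65% and 1.61% in Hdac3cKO, so the groups stayed apart on this scale. Inha alone made up 5280 and 4946 RPKM of the sum in Hdac3flox/flox and 6094 and 5776 RPKM in Hdac3cKO, so this share follows the ratio of Nppc to Inha closely and does not measure the number of GCs.

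The receptor genes did not move together, with Npr3 higher, Npr1 lower and Npr2 not called. Npr2, at chr4:43631935-43651244 on the plus strand, encodes the receptor that binds CNP and makes cGMP. Its level was 74.68 and 72.49 RPKM in Hdac3flox/flox (6382 and 6207 reads) and 72.48 and 70.45 RPKM in Hdac3cKO (6242 and 5794 reads). The lowest Hdac3flox/flox library and the highest Hdac3cKO library were 72.49 and 72.48 RPKM, so the groups touched. Npr2 was not called, with a log2 fold change of -0.04 and a 95% interval of -0.13 to 0.04 (adjusted p = 0.403 from limma). The sign was positive with median-of-ratios scaling (0.0016) and after removal of the trend with exon length and GC content (0.03). This interval does not reach the log2 fold change of Nppc at either end.

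Npr3, at chr15:11839896-11907287 on the minus strand, encodes the clearance receptor, which binds natriuretic peptides and takes them into the cell and lacks a guanylyl cyclase. It was weakly expressed, at 1.593 and 1.275 RPKM in Hdac3flox/flox (202 and 162 reads) and 4.060 and 3.736 RPKM in Hdac3cKO (519 and 456 reads). Every Hdac3cKO library was above every Hdac3flox/flox library. Npr3 rose 2.72-fold, from 1.43 ± 0.225 to 3.90 ± 0.230 RPKM (SD, n = 2 each), with a log2 fold change of 1.39 (95% interval 1.02 to 1.76, adjusted p = 0.00968 from limma). Since 0.1 was added before the log, this value is smaller than the log of the ratio, and it was 1.01 with 1 added instead. The ratio of summed reads was 2.72, with an exact 95% interval of 2.41 to 3.08 for counting error.

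The rise of Npr3 was called in each of the 9 other settings with all 4 libraries. It was lost without any 1 library, with adjusted p of 0.0530 and 0.0687 (limma) without Hdac3flox/flox replicate 1 or 2 and of 0.0928 and 0.0905 without Hdac3cKO replicate 1 or 2, at log2 fold changes of 1.24 to 1.54. As a share of the summed GC markers, Npr3 stood at 0.0198% and 0.0167% in Hdac3flox/flox and at 0.0440% and 0.0424% in Hdac3cKO.

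Npr1, at chr3:90450591-90465866 on the minus strand, encodes the guanylyl cyclase receptor for atrial and B-type natriuretic peptides, which is known from blood vessels and kidney. It was measured at 14.91 and 14.50 RPKM in Hdac3flox/flox (1306 and 1272 reads) and at 11.86 and 10.90 RPKM in Hdac3cKO (1047 and 919 reads). The groups did not overlap. Npr1 fell from 14.7 ± 0.295 to 11.4 ± 0.678 RPKM (SD, n = 2 each), with a log2 fold change of -0.37 ± 0.06 (standard error) and an adjusted p of 0.0227 in limma. The call was lost with no filter on low values (adjusted p = 0.0654) and without each library in turn, at 0.118 and 0.115 without Hdac3flox/flox replicate 1 or 2 and 0.0864 and 0.102 without Hdac3cKO replicate 1 or 2, and the 9 settings with all libraries gave 0.000428 to 0.0654.

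Summed markers of endothelium and of smooth muscle were lower in the same libraries. Of 12 endothelial markers 7 were called lower and none higher, beside 11% lower and 7.68% higher over all tested genes, and their summed level was 123.5 and 121.5 RPKM in Hdac3flox/flox and 89.3 and 90.1 RPKM in Hdac3cKO. Cdh5, a cadherin of endothelial junctions, fell by 0.42 on the log2 scale (adjusted p = 0.00686 from limma). Of 9 tested markers of smooth muscle and pericytes 5 were lower and none was higher, at sums of 553.4 and 545.6 against 374.5 and 441.6 RPKM. Des, named after its values were seen, went the other way, from 6.023 and 5.604 to 7.002 and 9.751 RPKM. It was not called (log2 fold change 0.50). With voom 6 of the 9 were called lower and 1 higher. Acta2, the smooth muscle actin, fell by 0.39 (adjusted p = 0.0374 from limma), a call lost with no filter (adjusted p = 0.116) and with the trend in length and GC content removed (adjusted p = 0.0516). The part of these cells in the values of Npr1 was not tested.

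**Figure D2:**
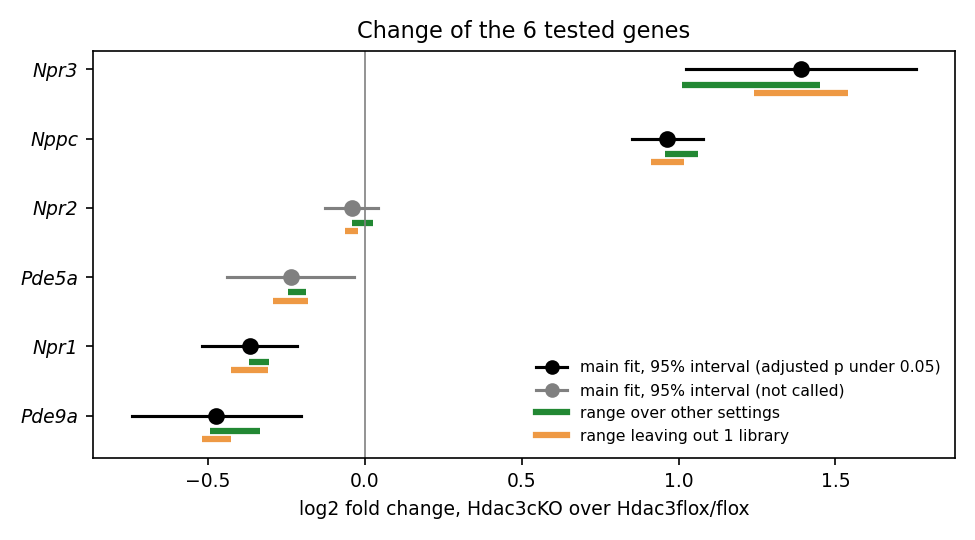
Log2 fold change of the 6 tested genes (Hdac3cKO over Hdac3flox/flox, on log2 of RPKM plus 0.1, n = 2 libraries each), with the 95% interval of limma as a thin line in black where called and grey where not, the range over 9 other settings in green and the range over leaving out 1 library in orange. The intervals of Npr3 (1.02 to 1.76) and Nppc (0.85 to 1.08) lie above 0, that of Npr2 (-0.13 to 0.04) spans it, and those of Npr1 and Pde9a lie below it.

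Ratios between 2 genes within a library do not depend on how libraries are scaled, and they set ligand and receptors side by side. Nppc and Npr2 RNA stood nearly level in Hdac3flox/flox, with ratios of 1.01 and 1.04, and at 2.10 and 2.01 in Hdac3cKO. The ratio of Npr2 to Npr3, of the signalling to the clearance receptor, was 46.9 and 56.9 in Hdac3flox/flox and 17.9 and 18.9 in Hdac3cKO. Both ratios separated the genotypes without overlap, which follows from the separate values above.

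The ratio of Nppc to Npr3 was 47.2 and 59.1 in Hdac3flox/flox and 37.5 and 37.9 in Hdac3cKO, so the ligand remained the more abundant RNA by far in every library. Npr2 to Npr1 gave 5.008 and 5.001 in Hdac3flox/flox and 6.11 and 6.46 in Hdac3cKO. Npr1 to Npr3 gave 9.36 and 11.4 in Hdac3flox/flox and 2.92 in both Hdac3cKO libraries. With 2 libraries a group, an exact permutation test, two-sided, cannot go below p = 0.333, and none was run on these ratios.

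**Figure D3:**
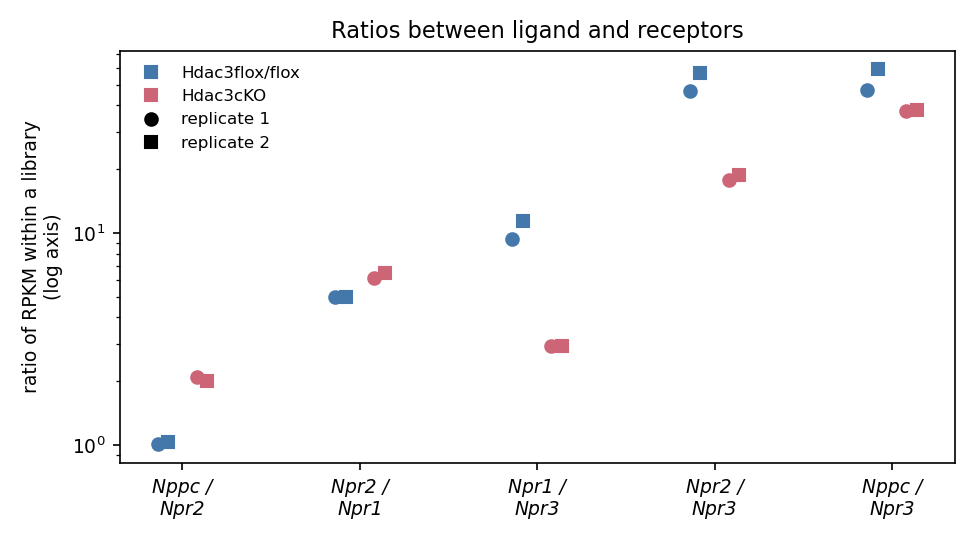
Ratio of RPKM of 2 genes within each library, on a log axis, with circles for replicate 1 and squares for replicate 2. Nppc over Npr2 lies near 1 in Hdac3flox/flox (1.01 and 1.04) and near 2 in Hdac3cKO (2.10 and 2.01), and all ratios to Npr3 are lower in Hdac3cKO.

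Both phosphodiesterases, which break cGMP down, had lower values in Hdac3cKO, and Pde9a alone of the pair was called. Pde9a, at chr17:31386210-31476310 on the plus strand, encodes a phosphodiesterase of high affinity for cGMP. Its level was 2.390 and 2.462 RPKM in Hdac3flox/flox (124 and 128 reads) and 1.778 and 1.662 RPKM in Hdac3cKO (93 and 83 reads). The groups did not overlap, on the lowest read counts of the 6 tested genes. Pde9a fell from 2.43 ± 0.0510 to 1.72 ± 0.0823 RPKM (SD, n = 2 each), with a log2 fold change of -0.47 ± 0.10 (standard error) and an adjusted p of 0.0425 in limma.

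This call stood close to the threshold. It was lost in 4 of 9 other settings with all libraries, among them those with no filter (adjusted p = 0.0892), with median-of-ratios scaling (adjusted p = 0.0514) and with removal of the trend with exon length and GC content (adjusted p = 0.0575), within a range of 0.0267 to 0.0892 over the 9 (limma). The adjusted p was 0.158 and 0.184 without Hdac3flox/flox replicate 1 or 2 and 0.126 and 0.151 without Hdac3cKO replicate 1 or 2. The log2 fold change was negative in all of these fits.

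Pde5a, at chr3:122728947-122859374 on the plus strand, encodes the cGMP-specific phosphodiesterase that is abundant in vascular smooth muscle. It was measured at 4.066 and 4.164 RPKM in Hdac3flox/flox (732 and 751 reads) and at 3.341 and 3.619 RPKM in Hdac3cKO (606 and 627 reads). Both Hdac3cKO libraries were below both Hdac3flox/flox libraries, and the gene did not pass the test, with a log2 fold change of -0.24 (95% interval -0.44 to -0.03, adjusted p = 0.101 from limma). It passed with limma voom on recovered reads (adjusted p = 0.0146), and the 9 settings ranged from that value to 0.168. The summed smooth muscle and endothelial markers given above were lower in the same 2 libraries, and their part in the values of Pde5a was not tested. The ratio of Pde5a to Pde9a was 1.70 and 1.69 in Hdac3flox/flox and 1.88 and 2.18 in Hdac3cKO.

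The cGMP-dependent kinases, which carry the cGMP signal to other proteins, had few reads. Prkg1, at chr19:30564489-31765033 on the minus strand, encodes the soluble kinase that is known from smooth muscle. It stood at 0.343 and 0.329 RPKM in Hdac3flox/flox (49 and 47 reads) and at 0.209 and 0.306 RPKM in Hdac3cKO (30 and 42 reads). Its groups did not overlap. Counting error alone allowed a ratio of summed reads from 0.554 to 1.05, so the reads did not tell this ratio apart from 1.

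Prkg2, at chr5:98929773-99037351 on the minus strand, encodes the membrane-bound kinase of the family. It had 5 and 9 reads in Hdac3flox/flox (0.0509 and 0.0914 RPKM) and 17 and 28 reads in Hdac3cKO (0.172 and 0.296 RPKM). The groups did not overlap, and the ratio of summed reads was 3.27, with an exact 95% interval of 1.76 to 6.44 for counting error. When genes with at least 10 reads in at least 2 libraries were tested, a filter chosen after seeing the data, Prkg2 did not pass (log2 fold change 0.95, adjusted p = 0.0715 over 16687 genes, limma). Prkg1 did not pass in that fit either (log2 fold change -0.30, adjusted p = 0.391).

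Ordered by level in Hdac3flox/flox, Nppc came first, then Npr2, Npr1, Pde5a, Pde9a, Npr3, Prkg1 and Prkg2. Nppc and Npr2 differed there by about the SD of Npr2 (75.2 against 73.6 ± 1.55 RPKM), and each of the other neighbours was apart in both libraries. In Hdac3cKO Npr3 had passed both phosphodiesterases and stood next after Npr1, at 3.736 to 4.060 RPKM next to Pde5a at 3.341 to 3.619 RPKM, and Prkg1 and Prkg2 overlapped. Nppc and Npr2 were among the abundant RNAs, at percentiles 97.8 and 96.2 of mean RPKM over all tested genes, while Npr3 and Pde9a lay at percentiles 31 and 26.6. Levels of different genes are compared per exon length, and for Npr3, Pde9a and Prkg1 the length behind the values (6927, 2834 and 7799 bases) differed from that in GENCODE M21 (9389, 3538 and 10861 bases).

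Some of these genes share exon bases with genes on the other strand, and the kit named in the labels does not mark strand. Npr1 shares 559 bases with the antisense gene Gm16048, which had at most 1 read in any library. Npr2 shares 266 bases with Gm12473, which had 152 and 129 reads in the Hdac3flox/flox libraries and 139 and 101 in the Hdac3cKO libraries, against 5794 to 6382 for Npr2. Gm12473 was also the match of Npr2 in the search for near-identical transcripts. That search covered both strands, so the match does not show a separate copy. Npr3 shares 321 bases with Gm5144, Pde9a shares 157 and 138 with a pair of antisense genes, and Pde5a shares 55 with 4930447N08Rik and has a near-identical transcript in Gm25960. Reads from either strand of these stretches cannot be told apart.

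Among the 5 genes with the profile most like that of Nppc, by distance of centred log2 values over the 4 libraries among 13307 genes with a mean of at least 1 RPKM, were Gm14226, Papss2, Rasgef1b and Ralgapa2. Papss2, an enzyme that makes the sulfate donor of the cell, was measured at 53.37 and 53.29 RPKM in Hdac3flox/flox and at 104.3 and 104.8 RPKM in Hdac3cKO, a distance of 0.08. Gm14226, a predicted gene, was nearest at 0.0748. The log2 fold changes of these 4 ran from 0.87 for Ralgapa2 to 1.06 for Rasgef1b, beside 0.96 for Nppc. The distance is taken over 4 libraries in 2 groups and says little beyond the size of the fold change.

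Other genes of the pathway were counted from a list of 69, of which 65 had a row and 49 were tested. In Hdac3cKO 5 were called higher, 7 lower and 37 were not called, beside 7.68% higher and 11% lower over all tested genes, and the median log2 fold change of the 49 was 0.04. None of the 12 was called by limma with any 1 library left out (14 to 20 of the 49 had an unadjusted p under 0.05 in those fits), and 22 were called with voom. With no filter on low values 3 were called, Mrvi1, Crip2 and Cdk1. The counts by role that follow are a description, to be read beside the 18.7% called over all tested genes, and nothing is read from them about a role.

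Among other sources of cGMP, 2 of 8 tested genes were lower and none was higher. Nos2, the inducible nitric oxide synthase, fell from 8.492 and 9.895 RPKM to 5.147 and 4.258 RPKM (log2 fold change -0.95, adjusted p = 0.0164 from limma). Gucy1a3, the alpha subunit of the soluble guanylyl cyclase that nitric oxide activates, fell by 0.45 (adjusted p = 0.0361 from limma, and 0.0985 with no filter). Its partner subunit Gucy1b3 had a log2 fold change of -0.23 and was not called. Among the 7 other tested phosphodiesterases that break down or respond to cGMP, Pde10a was called higher, at 0.906 and 0.926 RPKM in Hdac3flox/flox and 1.755 and 1.887 RPKM in Hdac3cKO (log2 fold change 0.92, or 0.56 with 1 added before the log, adjusted p = 0.0204 from limma). Pde3a, the enzyme that cGMP blocks in the oocyte, stood at 1.565 and 1.455 against 1.302 and 1.279 RPKM and was not called.

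Of 6 tested targets and partners of the kinases 2 were lower. Mrvi1, the kinase substrate at calcium stores of smooth muscle, fell from 7.304 and 7.752 RPKM to 4.676 and 5.096 RPKM (log2 fold change -0.61, adjusted p = 0.0129 from limma). Crip2 fell by 0.42 (adjusted p = 0.0102 from limma). The summed smooth muscle markers were lower in the same libraries and their part in these values was not tested. Enzymes that process or degrade natriuretic peptides, Corin, Furin and Mme, gave no call among 3 tested (1 at an unadjusted p under 0.05 in limma, and 1 called with voom), and Nppa, Nppb, Ostn and Pde2a were not analysed here. The gap junction genes likewise gave no call among 3 (1 at an unadjusted p under 0.05 in limma, and 1 called with voom), with Gja1, the connexin that joins GCs, at 556.8 and 546.9 RPKM in Hdac3flox/flox and 563.7 and 559.4 RPKM in Hdac3cKO.

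Of 10 tested genes of the arrest machinery of the oocyte 2 were higher and 1 was lower. Cdk1 and its partner Ccnb1, which drive entry into M phase in oocytes and in dividing cells, rose by 0.30 and 0.33 on the log2 scale (adjusted p = 0.0109 and 0.0159 from limma). Adcy9, an adenylyl cyclase, fell by 0.29 (adjusted p = 0.0394 from limma), a call lost with median-of-ratios scaling (adjusted p = 0.0518). Oocyte markers had summed levels of 210.1 and 214.5 RPKM in Hdac3flox/flox and 256.3 and 229.3 RPKM in Hdac3cKO, with 1 of 11 called, Zp2, which was higher. Called higher were 2 with median-of-ratios scaling, 3 with voom, 3 with the trend in length and GC content removed and 0 with no filter. The part of oocyte RNA in the values of these genes was not tested.

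Hormone receptors and signals that set the level of Nppc and Npr2 gave 2 higher and 2 lower of 13 tested genes. Areg, the EGF-like growth factor amphiregulin, rose from 19 and 11 reads to 95 and 52 reads (log2 fold change 2.14, or 1.35 with 1 added before the log, adjusted p = 0.0274 from limma). Lhcgr, the receptor of luteinizing hormone, rose by 0.26 from 167.0 and 163.0 to 201.6 and 194.4 RPKM (adjusted p = 0.0133 from limma). The oestrogen receptor gene Esr2 and the FSH receptor gene Fshr fell by 0.44 and 0.22 (adjusted p = 0.0147 and 0.0244 from limma), and the call of Fshr was lost with the trend in length and GC content removed (adjusted p = 0.0548). Gdf9 and Bmp15, oocyte factors that raise Npr2 in cumulus cells, were not called, at log2 fold changes of 0.15 and 0.11. The epidermal growth factor receptor Egfr stood at 9.350 and 8.778 RPKM against 9.067 and 9.590 RPKM, and its groups overlapped.

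**Figure D4:**
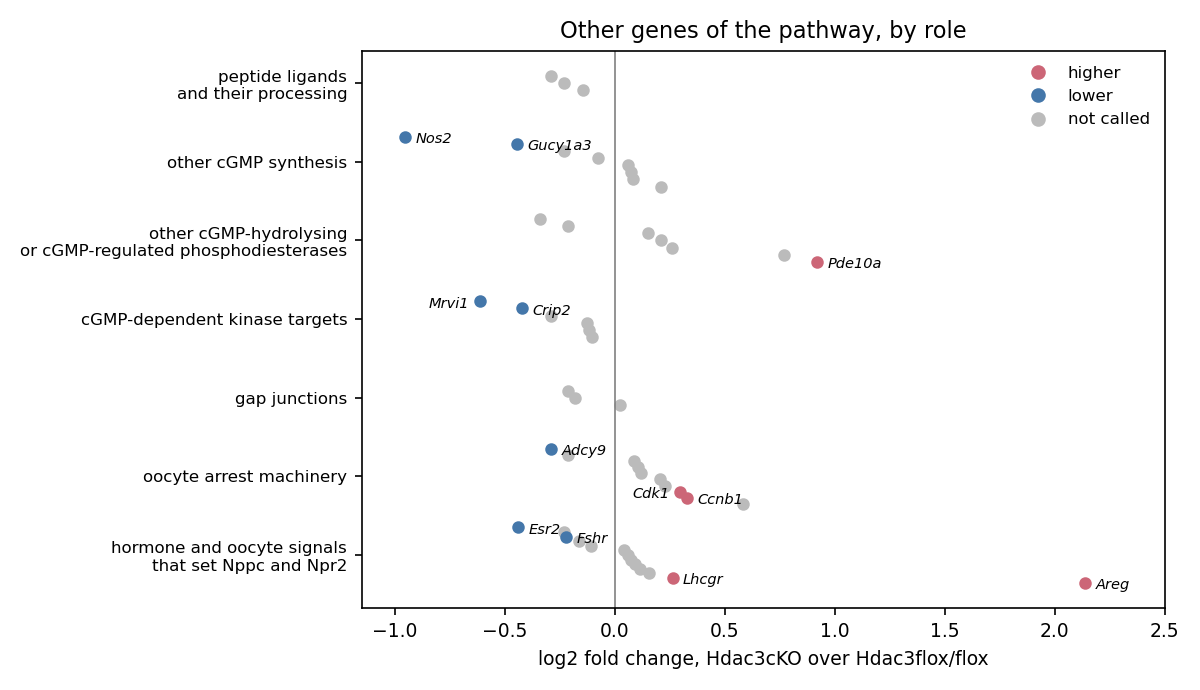
Log2 fold change (Hdac3cKO over Hdac3flox/flox, n = 2 libraries each) of the other tested genes of the pathway, one point per gene and one row per role, with genes called higher in red, called lower in blue and not called in grey; Pde3a stands in 2 rows. Areg (2.14) and Pde10a (0.92) lie farthest to the right and Nos2 (-0.95) farthest to the left, and no gene of peptide processing or gap junctions was called.

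Cell types of the ovary were followed through lists of marker genes. GC markers were by far the most abundant, led by Inha, the alpha subunit of inhibin, at 5280 and 4946 RPKM in Hdac3flox/flox and 6094 and 5776 RPKM in Hdac3cKO. Cyp17a1, the theca cell enzyme of androgen synthesis, was at 526.6 and 472.2 against 382.9 and 337.4 RPKM, so the libraries held other ovarian cells as well. No list had a marker at 0 in all libraries.

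Of 8 theca markers 5 were lower and none was higher, beside 11% lower and 7.68% higher over all tested genes. Their sums were 599.6 and 543.3 against 441.2 and 398.1 RPKM, mostly from Cyp17a1. Of 10 stroma markers 6 were lower and none was higher, at sums of 666.8 and 666.4 against 596.0 and 611.5 RPKM. With voom 1 marker of each of these lists was called higher, and likewise with the trend in length and GC content removed. With median-of-ratios scaling 1 stroma marker was called higher. Among markers of mural GCs, the cells that make CNP, Lhcgr was higher, Cyp11a1 was lower and Cd34 was not called, at sums of 558.5 and 519.2 against 511.7 and 473.8 RPKM. The call of Cyp11a1 was lost with no filter, with median-of-ratios scaling and with the trend in length and GC content removed (adjusted p = 0.125, 0.0554 and 0.0527 from limma). Of 3 markers of cumulus GCs, the cells that carry most NPR2, Slc38a3 fell by 2.57 on the log2 scale (adjusted p = 0.00445 from limma), while Amh (-0.01) was not called, and the list stood at sums of 238.6 and 286.2 against 231.2 and 232.7 RPKM. No leukocyte marker was called among 7 (3 at an unadjusted p under 0.05 in limma, and 1 called with voom), with log2 fold changes of -0.08 for Lyz2, -0.06 for Cd68 and 0.43 for Cd74. Cd74 was called higher when 1 RPKM was required in every library (adjusted p = 0.0477) and with the trend in length and GC content removed (adjusted p = 0.0363 from limma). Over the 7 the log2 fold change ran from -0.98 for Cd14, named after its value was seen, to that of Cd74. The part of a changed cell mixture in the values of the 8 genes was not tested.

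**Figure D5:**
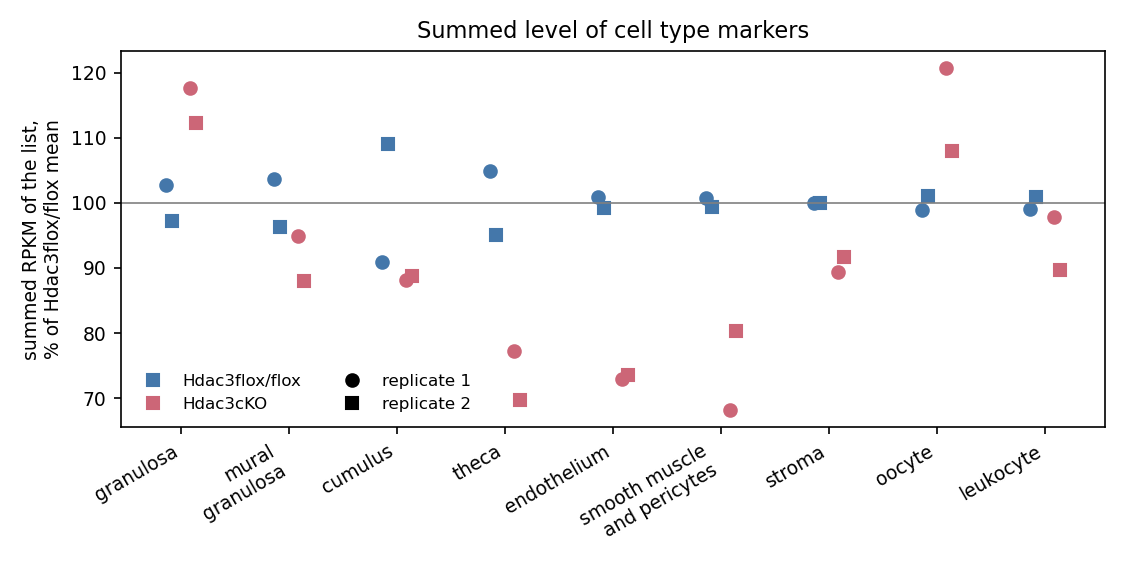
Summed RPKM of each marker list in each library, as percent of the mean of the Hdac3flox/flox libraries, with circles for replicate 1 and squares for replicate 2. Sums of theca, endothelium, smooth muscle, stroma, leukocyte, mural GC and cumulus GC markers are below 100% in both Hdac3cKO libraries. The sums of the general GC list (9230 and 8801 RPKM) and of oocyte markers are above it.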

How the data were processed

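The authors prepared TruSeq libraries from total RNA and deposited RPKM values, reads scaled to exon length and library total, for 28611 genes in 4 libraries. Bowtie 0.12.2 and mm8 are named, with no role, in notes by the submitters on their processing, and how reads were counted is not stated in the paper or the labels. Of 26771 rows that matched GENCODE M21 by symbol, 91% had the annotated exon length of GRCm38 (relative tolerance 1e-06), so positions are given on GRCm38. Library totals (18310258, 18346828, 18452073 and 17621129 reads) and whole reads were recovered from the deposited RPKM values alone. Replicates differed by more than counting noise (mean chi-square 2.03 over 16458 genes and 2.14 over 16193 genes). Intervals of read ratios are exact (Clopper-Pearson, 95%) and cover counting error only.

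The test was limma 3.58.1 (R 4.3.3, trend, genotype as sole term, residual df 2) on log2(RPKM + 0.1) of the 15528 genes that reached 0.5 RPKM in at least 2 libraries, two-sided, with Benjamini-Hochberg adjustment and a threshold of 0.05. The fit was tested on simulated data. Named were the 8 genes, called pathway genes (up to 30), the 5 profiles nearest to Nppc, Hdac3 and up to 3 of the most abundant markers of each cell type; other pathway genes were named after their values were seen. The 8 genes, the lists and the tests were chosen with earlier results of these data known. Promoters were from RefSeq (GRCm38.p6), and near-identical transcripts were searched with BLAST 2.17.0 (at least 95% identity over 50% of the shorter). Alternatives were other pseudocounts, filters and scalings, voom, a replicate block, removal of length and GC trends and leaving out each library. Names on 26 rows had turned into dates and 24 names stood on several rows. A gene near Nppc in profile and a marker of cumulus GCs are not reported here by name.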

Additional observations from a re-analysis of the deposited data

How the results depend on the processing

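With no filter on low values 954 genes (28611 tested) were called, among them 2 of the 8 genes, 3 pathway genes and 18 markers, and limma voom called 4637 genes and 22 pathway genes, against 2904, 4, 12 and 36. With 1 library left out, leaving a lone library assumed to vary like the other group, limma called 0 to 98 genes (4075 to 4357 at an unadjusted p under 0.05), 0 to 1 of the 8 genes, 0 to 0 pathway genes and 0 to 1 markers. The lone-library fits have fewer samples, and the cause of the other changes was not tested. The replicate numbers are shared in name only (correlation of replicate differences 0.08). With the replicate number as a block 2143 genes were called and 3 of the 8, without Pde9a (adjusted p = 0.0792), and the call of Gucy1a3 was lost as well (adjusted p = 0.0634). The log2 fold change changed sign for genes that were not called. That of Npr2 was 0.0016 with median-of-ratios scaling and 0.0274 with the length and GC trend removed, and that of Amh was 0.0305 and 0.0534 in the same fits. With the trend removed Lyz2 had 0.0062 and Cd68 had 0.0358. With 1 library left out the values ran from -0.1412 to 0.1148 for Amh, from -0.2192 to 0.0508 for Lyz2 and from -0.1324 to 0.0085 for Cd68. Nppc and Npr3 were called in all 9 other settings with all libraries. Depth limits Prkg1 and Prkg2, which had 5 to 49 reads per library.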
